A study of Mus musculus with 6 samples.

Results

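The immature thymocyte genes are 7 genes that T cells transcribe while they develop in the thymus: Rag1, Rag2, Dntt, Ptcra, Cd24a, Cd1d1 and Arpp21. They were taken by symbol, 7 of the 34245 genes in the table, and all 7 had a row. RNA-seq came from 3 peripheral T-cell lymphomas (PTCL) of Dnmt3b+/- mice on the FVB strain, given as FVB/N in the paper. Each lymphoma was isolated from a lymph node at the terminal stage of disease. In Dnmt3b+/- mice 1 allele of the DNA methyltransferase Dnmt3b is inactivated in the germline, so it is missing from every cell and not from T cells alone. The ages of the mice were not given in the sources used here. Each sample was bulk tumor tissue, in which fewer cells of a type and less RNA per cell cannot be told apart. The 3 tumors form a single group and are described 1 by 1, and RNA-seq of normal thymocytes or T cells was not analysed here.

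In T-cell precursors of the thymus the RAG recombinase joins V, D and J segments of the receptor genes, terminal transferase adds bases at the joints, and the first rearranged beta chain is tested in a complex with the pre-T alpha chain. The cells then pass a CD4+CD8+ double-positive stage at which the alpha chain is rearranged and lipid antigens are presented by CD1d, and recombination ends once a receptor has been selected. Loss of these transcripts therefore goes with maturation, while B-cell precursors, neurons and other cells use some of the same genes.

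The deposited unit is FPKM, reads per kilobase of exon adjusted for sequencing depth. Tumor 1 was sequenced to a depth of 30726570 counted reads, tumor 2 to 18969988 and tumor 3 to 20770928. The reads behind each value were recovered from the FPKM. Intervals are exact 95% Poisson intervals and cover counting error only. A gene without a read holds a small positive FPKM, so for a count of 0 the FPKM of 3 reads is given as the limit the count allows. Sums over a list keep the small values of its genes without reads.

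Of the 7 genes, Cd24a and Cd1d1 exceeded 0.2 FPKM, the threshold for an expressed gene, in every tumor, which is 2 of 7 beside 36.7% of all genes. In at least 1 tumor 4 of 7 exceeded it, beside 46.3% of all genes. Rag2 and Ptcra had 0 reads in every tumor, 2 of 7 beside 42.7% of the genes with whole reads. Dntt and Arpp21 had over 2/3 of their summed FPKM in a single tumor, tumor 1 for both, which is 2 of 7 beside 7.90% of all genes. Among genes with a mean of at least 0.2 FPKM the same held for 1 of 3 members, Dntt, beside 9.81% of such genes, and tumor 1 was the dominant tumor for 4.76%. With 7 genes the first 3 of these counts lie near the shares of all genes. In tumors 1, 2 and 3, 2, 4 and 3 of the 7 genes had 0 reads, beside 45.9%, 49.8% and 52.4% of the genes with whole reads. With every gene without a read set to the FPKM of 3 reads, the median of the 7 genes in the tumors in that order was at most 0.278, 0.0743 and 0.113 FPKM, beside 0.174, 0.237 and 0.196 over all genes.

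**Figure D1:**
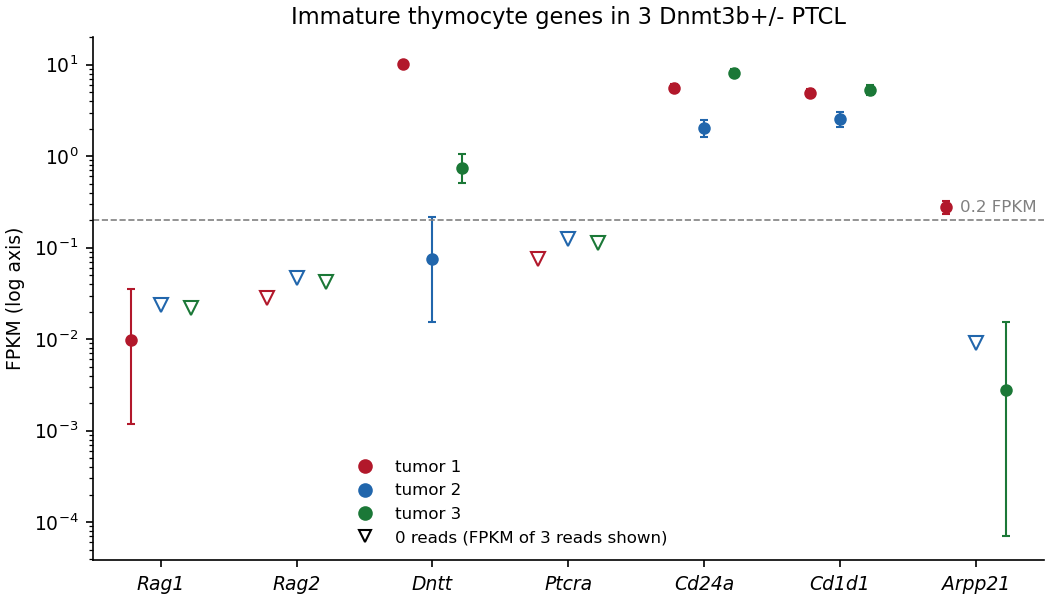
FPKM of the 7 genes in each tumor on a log axis. Points are values with exact 95% Poisson intervals of the recovered reads, open triangles mark 0 reads at the FPKM of 3 reads, and the dashed line is 0.2 FPKM. Rag1, Rag2 and Ptcra lie below the line in all 3 tumors, Dntt and Arpp21 are higher in tumor 1 than in tumors 2 and 3, and Cd24a and Cd1d1 lie above the line throughout.

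Rag1 and Rag2 encode the recombinase that cuts receptor genes at their recombination signals. They lie 5753 bases apart on chromosome 2 of mm10, Rag2 from 101624718 to 101632529 on the forward strand and Rag1 from 101638282 to 101649501 on the reverse strand. Rag1 (ENSMUSG00000061311) had 2 reads in tumor 1, an FPKM of 0.00985 with an interval from 0.00119 to 0.0356. In tumors 2 and 3 Rag1 had 0 reads, which allows up to 0.0239 and 0.0219 FPKM. Rag2 (ENSMUSG00000032864) had 0 reads in each tumor, which allows up to 0.0285, 0.0462 and 0.0422 FPKM in tumors 1, 2 and 3. Transcripts of the recombinase thus had at most 2 reads per gene in each of the 3 tumors. Nearby genes, here and for the other members, were chosen by position after the members' values were seen. Traf6, an adaptor of NF-kappaB signaling 28928 bases from Rag1, had 5.86, 3.78 and 4.37 FPKM in the 3 tumors in order. B230118H07Rik, whose annotated span covers both Rag genes and shares 80 exon bases with Rag1 and 208 with Rag2, had 30, 1 and 36 reads.

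The start of Rag1 is shown because its transcript was nearly undetected in all 3 tumors. RefSeq windows of 300 bases, 250 before and 50 after a start, were found for 5 of the 7 members in GRCm38.p6. Both strands were searched for the E-box CANNTG bound by E proteins, its forms CAGCTG and CAGGTG, the RUNX motif TGTGGT, the GATA motif AGATAA, the TCF/LEF motif CTTTGA and the TATA box TATAAA. The window of Rag1, chr2:101649483-101649782 on the reverse strand, is built on a start site 31 bases before the start of Rag1 in the table. That site is also the annotated start of B230118H07Rik, and the 2 genes cannot be told apart by it. E-boxes are in capitals.
Rag1: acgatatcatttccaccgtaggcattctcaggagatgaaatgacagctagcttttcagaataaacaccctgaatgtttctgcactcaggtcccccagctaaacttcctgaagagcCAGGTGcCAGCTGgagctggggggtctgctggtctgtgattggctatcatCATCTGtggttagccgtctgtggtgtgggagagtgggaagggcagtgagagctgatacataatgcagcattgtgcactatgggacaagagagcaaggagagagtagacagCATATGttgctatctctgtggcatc
It holds 4 E-boxes, 1 of them CAGCTG and 1 CAGGTG, and 2 RUNX motifs, the first of which overlaps the E-box that begins 85 bases before the start. At least 1 E-box is present in 72.3% of all 32851 windows, CAGCTG in 16.3%, CAGGTG in 20.2% and a RUNX motif in 16.8%, with 2 or more RUNX motifs in 1.81%. A match describes letters only, and binding was not measured.

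Dntt (ENSMUSG00000025014) encodes terminal deoxynucleotidyl transferase, which adds bases without a template at V(D)J joints and is a diagnostic marker of lymphoblasts. It lies on chromosome 19 from 41029275 to 41059523. Tumor 1 held 10.3 FPKM of Dntt, tumor 2 held 0.0743 and tumor 3 held 0.747. These values rest on 674, 3 and 33 reads, with intervals of 9.54 to 11.1, 0.0153 to 0.217 and 0.514 to 1.05 FPKM. Tumor 1 was high, tumor 3 intermediate and tumor 2 lowest, and the intervals did not overlap. Tumor 1 exceeded tumor 3 by 13.8 times, with a counting interval of 9.74 to 20.2, and tumor 2 by 139 times, with an interval of 47.3 to 674. The mean was 3.71 ± 5.72 FPKM (SD, n = 3), and without tumor 1 it was 0.410 FPKM. Within tumor 1, Dntt stood above 75.9% of the genes that exceeded 0.2 FPKM, and within tumor 3 above 18.6%. Dntt was thus well expressed in a tumor in which Rag1 had 2 reads and Rag2 none.

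The window of Dntt is shown because Dntt and Arpp21 both had most of their FPKM in tumor 1, chr19:41029025-41029324 on the forward strand, with E-boxes in capitals.
Dntt: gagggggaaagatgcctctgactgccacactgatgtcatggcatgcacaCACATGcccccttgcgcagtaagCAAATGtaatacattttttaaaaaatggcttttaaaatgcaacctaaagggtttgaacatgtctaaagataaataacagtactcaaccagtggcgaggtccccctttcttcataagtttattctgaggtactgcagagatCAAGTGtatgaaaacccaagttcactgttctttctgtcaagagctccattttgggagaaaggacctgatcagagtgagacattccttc
It holds 3 E-boxes, none of them CAGCTG or CAGGTG, and 1 GATA motif, which 11.2% of all windows hold. A TATA box, present in 13.6% of all windows, was found in none of the windows of the 5 members. The window of Dntt has 2 CpG and those of Rag1 and Rag2 have 3 each, where 14.1% of all windows have fewer than 2 and 23.3% fewer than 3. Methylation was not analysed here.

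The genes whose shares over the 3 tumors were closest to those of Dntt, by Euclidean distance among 11197 genes with a mean of at least 1 FPKM, were Chil3, Tcrg-C1 and Fpr1. Chil3, a chitinase-like protein of myeloid cells, had 11.9, 0.0969 and 0.826 FPKM in tumors 1, 2 and 3, at a distance of 0.00337. Tcrg-C1, a constant gene of the T-cell receptor gamma chain, had 16.3, 0.171 and 1.09 FPKM, at a distance of 0.00584. Fpr1, a formyl peptide receptor of neutrophils, had 3.91 FPKM in tumor 1 and 0.255 in tumor 3, and 0 reads in tumor 2, which allows up to 0.119 FPKM, at a distance of 0.00815. These genes were chosen for this likeness, so their pattern adds nothing to it.

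The summed levels of markers of several other cells were highest in tumor 1 as well. Of 10 neutrophil markers 2 exceeded 0.2 FPKM in every tumor, 6 without tumor 2, 5 after rescaling to a sum of 1000000 and 1 with a threshold of 1 FPKM. Their summed level in tumors 1, 2 and 3 was 40.4, 1.64 and 17.6 FPKM. The order of tumor 1, then 3, then 2, that of Dntt, held for 6 of the 7 markers that passed 0.2 FPKM in any tumor, beside 27.4% of all such genes. S100a9, the most abundant, had 22.6, 1.01 and 10.4 FPKM, S100a8 had 13.2, 0.228 and 4.30, and Elane had 0 reads in every tumor. The summed neutrophil level thus had the order of Dntt, with a smaller gap between tumors 1 and 3. Macrophage and dendritic cell markers summed to 224, 117 and 18.4 FPKM, with 9 of 9 above 0.2 FPKM in every tumor and 4 above 1 FPKM in every tumor. By mean C1qa led at 74.5, 24.1 and 1.44 FPKM, then C1qb at 64.4, 20.6 and 1.59 FPKM. Of the 9, 8 were highest in tumor 1, and Cd68, named after its values were seen, was highest in tumor 2 with 19.6, 51.2 and 9.27 FPKM. Within tumors 2 and 3 Cd68 was the highest of the 9. No macrophage or dendritic cell marker was at 0 reads in all tumors. Erythroid markers summed to 202, 38.4 and 4.80 FPKM with 4 of 8 above the threshold in every tumor. By mean Hba-a1 led at 92.3, 19.6 and 1.90 FPKM, then Hba-a2 at 40.7, 8.22 and 0.0722 FPKM. In both lists the sum was lowest in tumor 3, not in tumor 2, and no erythroid marker was at 0 reads in all tumors. The part of neutrophils, macrophages and erythroid cells in the level of Dntt was not tested.

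Precursors of B cells and plasmacytoid dendritic cells can also transcribe Dntt. Of 5 B-cell precursor markers 2 exceeded 0.2 FPKM in every tumor, with sums of 1.86, 1.35 and 2.34 FPKM. The count was 1 with median-of-ratios factors, 0 with a threshold of 1 FPKM and 4 after rescaling to a sum of 1000000. The 2 were Vpreb3 with 1.17, 0.552 and 1.29 FPKM on 31, 9 and 23 reads, and Vpreb1 with 0.205, 0.568 and 0.433. The values of Vpreb1 rest on only 7, 12 and 10 reads. Igll1, which encodes a chain of the surrogate light chain, had 0 reads in all 3 tumors. Of 9 plasmacytoid dendritic cell markers 5 exceeded the threshold in every tumor, 8 without tumor 2 or with a threshold of 0.1 FPKM, and 9 after rescaling to a sum of 1000000. Their sums were 35.2, 30.3 and 59.5 FPKM, and none was at 0 reads in all tumors. Ly6d, the most abundant by mean, had 9.10, 3.19 and 29.4 FPKM. Irf8 had 7.58, 12.3 and 5.38 FPKM and was the highest of the 9 in tumor 2. The order of Dntt held for 3 of the 9, beside the same 27.4% of genes, and the order of tumor 3, then 1, then 2 for another 3, beside 7.93%, or 4 and 2 after rescaling to a sum of 1000000. Those in the order of Dntt, named after their values were seen, were Siglech with 2.52, 0.187 and 0.655 FPKM, Tcf4 and Ccr9. The part of B-cell precursors and plasmacytoid dendritic cells in the level of Dntt was not tested.

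Thymic epithelium markers were examined because thymus tissue would carry thymocytes with it. Of 8 such genes 2 exceeded 0.2 FPKM in every tumor and 0 exceeded 1 FPKM in every tumor, with sums of 4.27, 2.02 and 0.991 FPKM. Prss16, a serine protease of the thymic cortex, had 2.42 FPKM in tumor 1 on 311 reads and 0.115 in tumor 3 on 10 reads, and 0 reads in tumor 2, which allows up to 0.0378 FPKM. Ccl25, a chemokine for thymocytes, had 1.20, 0.602 and 0.414 FPKM, and Epcam, named after its values were seen, had 0.415, 1.14 and 0.307. Prss16 thus made up the larger part of the sum in tumor 1, Epcam was highest in tumor 2, and the order of Dntt held for 1 of the 3 markers that passed 0.2 FPKM in any tumor, Prss16. Foxn1, the transcription factor that defines thymic epithelium, had 0 reads in all 3 tumors. The part of thymus tissue in the level of Dntt was not tested.

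**Figure D2:**
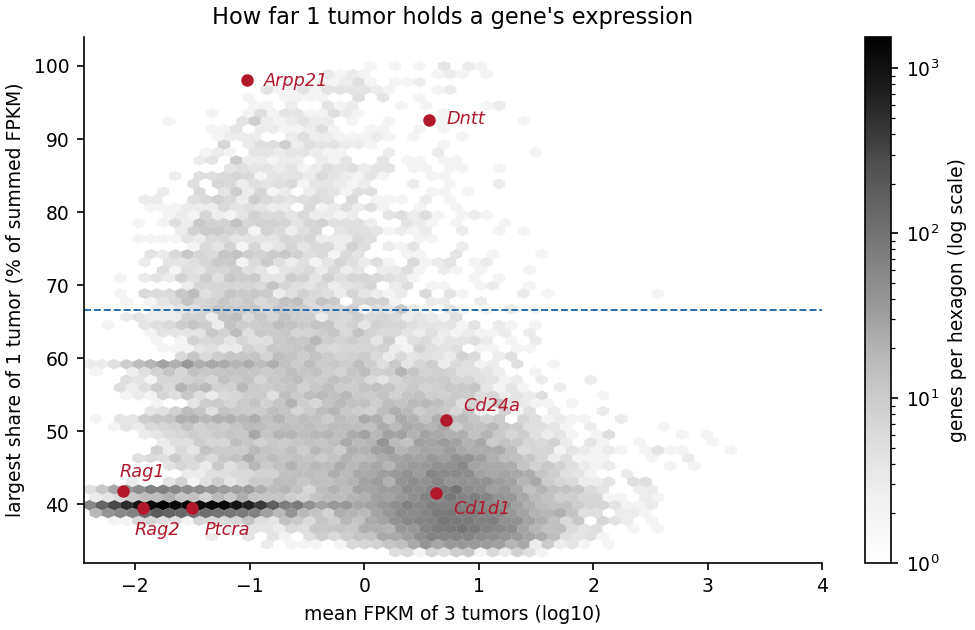
Largest share of a single tumor in the summed FPKM of each gene against its mean FPKM on a log10 axis. Grey hexagons hold all genes except those of the very lowest means, and the 7 genes are in red. Genes without a read are drawn at the small FPKM they hold. The dashed line is the share of 2/3 above which a tumor was called dominant; Dntt with 92.6% and Arpp21 with 98.1% lie above it, and Cd24a with 51.6% and Cd1d1 with 41.5% below.

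Ptcra (ENSMUSG00000036858) encodes the invariant pre-T alpha chain, which pairs with the beta chain before an alpha chain exists. It lies on chromosome 17 from 46755663 to 46763712 on the reverse strand. Ptcra had 0 reads in each tumor, which allows up to 0.0761, 0.123 and 0.113 FPKM in tumors 1, 2 and 3. No pre-T alpha transcript was detected at this depth, and matches of at least 95% identity elsewhere in the genome cover 16.2% of its longest transcript. Cnpy3, 3449 bases away, had 8.41, 9.89 and 7.84 FPKM. Gm26904, a noncoding gene on the opposite strand whose span covers Ptcra but shares no exon base with it, had 1.33, 3.96 and 1.49 FPKM. Both of these genes had reads in every tumor.

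The window of Ptcra, chr17:46763663-46763962 on the reverse strand, is shown beside those of Rag1 and Dntt as that of a member without a read, with E-boxes in capitals.
Ptcra: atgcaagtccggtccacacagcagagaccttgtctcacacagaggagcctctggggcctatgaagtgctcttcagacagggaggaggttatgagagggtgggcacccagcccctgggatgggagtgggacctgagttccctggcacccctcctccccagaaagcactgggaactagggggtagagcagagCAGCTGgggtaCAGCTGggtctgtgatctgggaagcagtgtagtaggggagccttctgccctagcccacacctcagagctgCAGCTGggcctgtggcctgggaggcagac
All 3 of its E-boxes are CAGCTG. Windows with 3 or more CAGCTG make up 0.207% of the table. The window has 1 CpG, and 5.43% of all windows have fewer.

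Cd24a (ENSMUSG00000047139), on chromosome 10 from 43578284 to 43584265, encodes the heat-stable antigen, a glycoprotein of the cell surface that is high on immature thymocytes and falls on mature T cells. B cells, granulocytes and red cell precursors carry it too. Cd24a stood at 5.55 FPKM in tumor 1, at 2.02 in tumor 2 and at 8.08 in tumor 3, on 440, 99 and 433 reads. The intervals were 5.04 to 6.09, 1.64 to 2.46 and 7.34 to 8.88 FPKM. Cd24a was highest in tumor 3, lower in tumor 1 and lowest in tumor 2, with intervals that did not overlap. Tumor 3 exceeded tumor 2 by 3.99 times, with a counting interval of 3.20 to 5.02, and tumor 1 by 1.46 times, with an interval of 1.27 to 1.67. The mean was 5.22 ± 3.04 FPKM (SD, n = 3). The longest transcript of Cd24a, 1816 bases, is matched over 99.7% of its length by sequence on chromosome 14, with an identity of 96.5% over 1329 bases from 119643933 to 119645246. Reads placed equally well on both would have been lost to the filter on mapping quality, so the values of Cd24a are uncertain.

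Cd1d1 (ENSMUSG00000028076), on chromosome 3 from 86995834 to 86999441, encodes the CD1d molecule that presents lipids to natural killer T cells and is carried by double-positive thymocytes, B cells and macrophages. Cd1d1 stood at 4.95 FPKM in tumor 1, at 2.52 in tumor 2 and at 5.30 in tumor 3, on 391, 123 and 283 reads. The intervals were 4.47 to 5.47, 2.10 to 3.01 and 4.70 to 5.96 FPKM. Tumor 2 was low, and tumors 1 and 3 did not differ beyond counting error, with a ratio of 1.07 and an interval of 0.916 to 1.25. Tumor 3 exceeded tumor 2 by 2.10 times, with an interval of 1.69 to 2.62. The mean was 4.26 ± 1.51 FPKM (SD, n = 3). With each tumor rescaled to a sum of 1000000, tumor 1 was highest, at 26.2 against 12.2 and 23.7. The adjacent gene Cd1d2 was not analysed here; matches of at least 95% identity to other loci cover 36.5% of the longest Cd1d1 transcript, the longest at 98.9% over 281 bases, so a share of its reads may have been lost or misplaced.

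In the order of mean level Cd24a stood first, Cd1d1 second and Dntt next, and these 3 did not differ beyond their spread between tumors. Within tumor 1 the order was Dntt, Cd24a and Cd1d1, and within tumors 2 and 3 Dntt was below both. The means of Arpp21, Rag1, Rag2 and Ptcra were below 0.2 FPKM.

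B-cell markers moved with Cd24a. All 9 of them exceeded 0.2 FPKM in every tumor and 4 exceeded 1 FPKM in every tumor. Their summed level in tumors 1, 2 and 3 was 68.3, 51.4 and 125 FPKM, with none at 0 reads. The order of tumor 3, then 1, then 2 held for 7 of 9, beside 7.93% of the genes that passed 0.2 FPKM in any tumor, and for 6 of 9 after rescaling to a sum of 1000000. Cd79a, the most abundant by mean, had 23.1, 7.31 and 49.0 FPKM, and Cd79b, its partner in the B-cell receptor, had 20.1, 3.72 and 35.5. Both were thus highest in tumor 3 and lowest in tumor 2, as Cd24a was. The exceptions, named after their values were seen, were Cr2 with 3.33, 0.325 and 2.50 FPKM and Cd22 with 5.84, 36.5 and 13.9. Within tumor 2 Cd22 was the highest of the 9 and made up most of the sum. The summed levels of neutrophil, macrophage and dendritic cell, and erythroid markers, given above, were highest in tumor 1 and did not follow the order of Cd24a. The sums of mature T-cell and egress genes, of plasmacytoid dendritic cell markers and of B-cell precursor markers did follow it, with 3 of 9, 3 of 9 and 2 of 3 genes that passed 0.2 FPKM in any tumor in that order, or 3, 2 and 1 after rescaling. With median-of-ratios factors 2 more sums took this order. They were those of double-positive thymocyte genes, at 717, 327 and 761, and of thymocyte transcription factors, at 379, 357 and 381. The part of B cells and of the other cells named here in the levels of Cd24a and Cd1d1 was not tested.

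**Figure D3:**
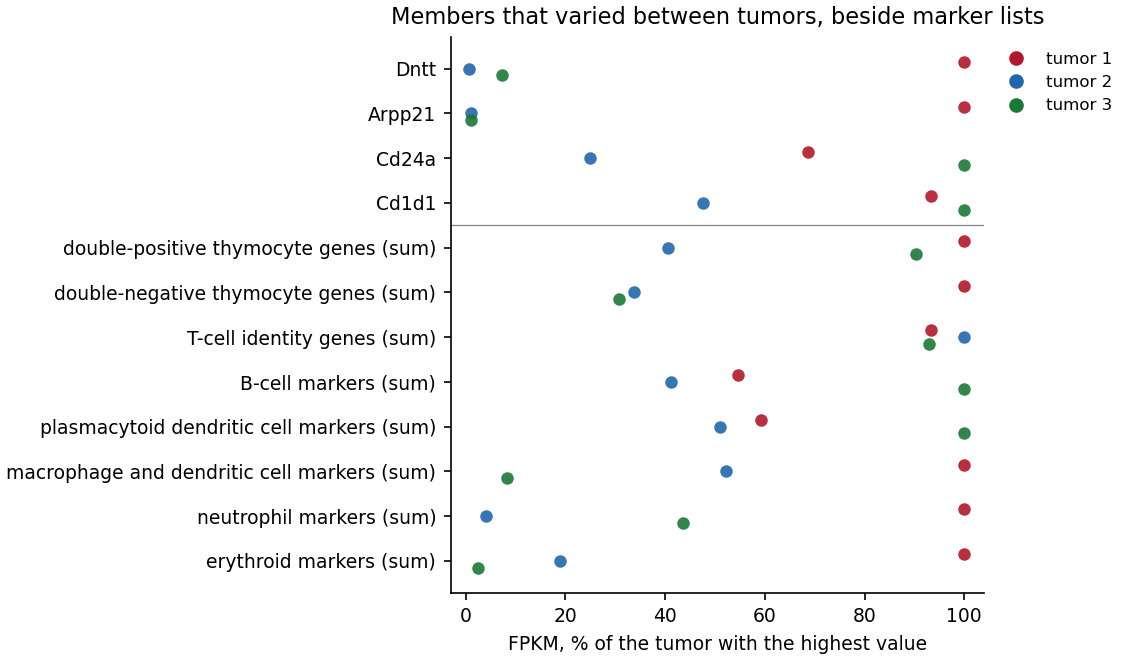
FPKM in each tumor as a percentage of the tumor with the highest value, for the 4 members that exceeded 0.2 FPKM in at least 1 tumor and for the summed FPKM of 8 lists. Dntt and Arpp21 sit far lower in tumors 2 and 3 than in tumor 1, and Cd24a, Cd1d1 and the B-cell markers are lowest in tumor 2. Cd24a and the B-cell markers are highest in tumor 3. Cd1d1 did not differ beyond counting error between tumors 1 and 3, and was highest in tumor 1 after rescaling to a sum of 1000000.

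Arpp21 (ENSMUSG00000032503) encodes a phosphoprotein with an R3H domain, known from dopamine-responsive neurons and also transcribed in immature thymocytes. It spans chromosome 9 from 112065091 to 112235938 on the reverse strand. Its FPKM was 0.278 in tumor 1 on 149 reads, with an interval of 0.235 to 0.327. Tumor 2 had 0 reads, which allows up to 0.00907 FPKM, and tumor 3 had 1 read, an FPKM of 0.00276 with an interval of 0.0000699 to 0.0154. Arpp21 was therefore detected well in tumor 1 alone, at least 30.7-fold higher than in tumor 2 against the FPKM of 3 reads, and 101 times the level of tumor 3 with a counting interval of 17.8 to 4005. Its low FPKM in tumor 1, above 4.56% of the genes over the threshold there, is per kilobase of 17428 exon bases merged from 31 transcripts, whereas the longest transcript has 5320 bases. The antisense noncoding gene 2900079G21Rik shares 580 exon bases with it and had 9, 0 and 0 reads. Whether the counting used strand was not given in the sources used here, so reads in that stretch cannot be told apart.

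Neurons also transcribe Arpp21. None of 6 neuronal markers exceeded 0.2 FPKM in every tumor, their sums were 0.159, 1.39 and 0.0482 FPKM, and Rbfox3 had 0 reads in all 3 tumors. Ppp1r1b, the most abundant by mean, had 1.30 FPKM in tumor 2 on 72 reads, against 1 read in tumor 1 and 0 in tumor 3. Slc17a7 had 17, 7 and 0 reads, and Syt1, named after its values were seen, had 8, 0 and 0. The first of these had most of its reads in tumor 2 and the others in tumor 1. The part of neurons in the level of Arpp21 was not tested. The genes closest to Arpp21 in their shares over the tumors were Tns4 with 7.19, 0.0612 and 0.0745 FPKM at a distance of 0.00153, AC126459.2 (ENSMUSG00000111229), a gene without a description, with 11.5, 0.108 and 0.131 at 0.00175, and AA467197 with 122, 1.10 and 1.44 at 0.00224. Their shares in tumor 1 were the ground for choosing them.

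The table of windows holds 9 starts for Arpp21, and FPKM per gene does not tell which was used. The outermost, chr9:112233673-112233972 on the reverse strand, is shown for comparison with Dntt, with E-boxes in capitals.
Arpp21: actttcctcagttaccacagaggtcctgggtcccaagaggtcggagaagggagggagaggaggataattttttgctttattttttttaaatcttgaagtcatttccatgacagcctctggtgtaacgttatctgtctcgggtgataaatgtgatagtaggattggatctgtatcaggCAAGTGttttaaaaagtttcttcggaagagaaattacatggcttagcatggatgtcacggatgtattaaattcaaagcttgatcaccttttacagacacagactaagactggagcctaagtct
This window holds 1 E-box and 1 match each to the RUNX, GATA and TCF/LEF motifs, which 16.8%, 11.2% and 16.0% of all windows hold, and 5 CpG. Like the window of Dntt it holds a GATA motif, but the other 8 windows of Arpp21 hold none.

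Relatives of the members were expressed in all 3 tumors, with sums of 14.8, 18.0 and 14.7 FPKM. Polm, a polymerase of the same family as terminal transferase that also acts at V(D)J joints, had 6.33, 9.42 and 8.03 FPKM in tumors 1, 2 and 3. R3hdm1 and R3hdm2, which share the R3H domain with Arpp21, had 2.31, 1.39 and 1.31 FPKM and 6.19, 7.14 and 5.32 FPKM. All 3 exceeded 1 FPKM in every tumor and none was dominated by a single tumor.

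Genes of the thymocyte stages were compared from lists. Of 11 double-positive thymocyte genes 10 exceeded 0.2 FPKM in every tumor, with sums of 787, 319 and 711 FPKM. The CD8 chains led the list, Cd8b1 with 435, 166 and 443 FPKM and Cd8a with 259, 122 and 218 FPKM. These chains made up most of the sum in every tumor. The paper describes T-cell lymphomas of Dnmt3b+/- mice as mostly mature and CD8-positive, so the sum does not mark the double-positive stage alone. The paper also reports an immature double-positive lymphoma in these mice. From it the paper proposes that lower Dnmt3b may favor transformation at earlier T-cell stages. Whether any tumor sequenced here was of that immature kind was not tested. Cd4, the other coreceptor, had 28.4, 4.28 and 8.22 FPKM. All 3 coreceptor genes were lowest in tumor 2, and Cd4 was highest in tumor 1, where Dntt was highest too. The order of tumor 1, then 3, then 2 held for 8 of the 11 genes, beside the same 27.4% of genes.

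Of 13 double-negative thymocyte genes, which mark the earliest stages, 7 exceeded 0.2 FPKM in every tumor, with sums of 93.1, 31.5 and 28.7 FPKM. Il2ra, the alpha chain of the interleukin 2 receptor, had 43.2, 9.98 and 1.96 FPKM, and Dtx1, a regulator of Notch signaling, had 26.3, 1.40 and 8.34 FPKM. Both were highest in tumor 1, and activated mature T cells transcribe Il2ra as well. The list was mixed: Notch1, named after its values were seen, was highest in tumor 2 with 8.56, 13.9 and 9.71 FPKM. The order of Dntt held for 4 of the 12 genes that passed 0.2 FPKM in any tumor, near the 27.4% of all such genes. With median-of-ratios factors it held for 2, and the share of all genes was not computed under that scaling. All 14 genes listed as end-joining factors and other cofactors of V(D)J recombination exceeded the threshold in every tumor, with sums of 224, 185 and 159 FPKM. Hmgb2 with 106, 87.3 and 56.9 FPKM and Hmgb1 with 57.6, 37.7 and 43.8 FPKM led the list. They made up most of each sum, so the sums say little about end joining. End-joining factors also serve DNA repair outside lymphocytes. Of 17 transcription factors of thymocytes 16 exceeded the threshold in every tumor, with sums of 416, 348 and 356 FPKM, led by Tcf7 with 175, 124 and 169 FPKM and Ikzf1 with 63.5, 52.1 and 52.4 FPKM.

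T-cell genes were present in every tumor, though the identity genes do not mark mature T cells alone. All 13 T-cell identity genes exceeded 0.2 FPKM in every tumor, with sums of 1390, 1490 and 1384 FPKM. By mean over the tumors Lck led with 159.6, 208 and 207 FPKM. Trac, the constant gene of the rearranged alpha chain, was next with 165, 213 and 182 FPKM. Trbc2 was the highest of the list in tumor 1 with 195 FPKM, and Trbc1 in tumor 2 with 284. All 9 genes of mature T cells and thymic egress exceeded 0.2 FPKM in every tumor too, and 8 exceeded 1 FPKM in every tumor. Their sums were 583, 344 and 728 FPKM, led by Cd52 with 219, 191 and 325 FPKM. Levels differed between tumors: Il7r, named after its values were seen, had 30.7, 0.641 and 64.5 FPKM. Cd6, also named after its values were seen, was highest in tumor 2 with 20.7, 28.6 and 26.3 FPKM. The T-cell genes that the label of the samples calls for were thus present, while the name immature thymocyte genes describes what the 7 genes do in the thymus and not the stage of these tumors. Over all 15 lists 102 of 140 genes with a value exceeded 0.2 FPKM in every tumor, beside 36.7% of all genes; the erythroid gene Ahsp and Cd1d2 were not analysed here.

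**Figure D4:**
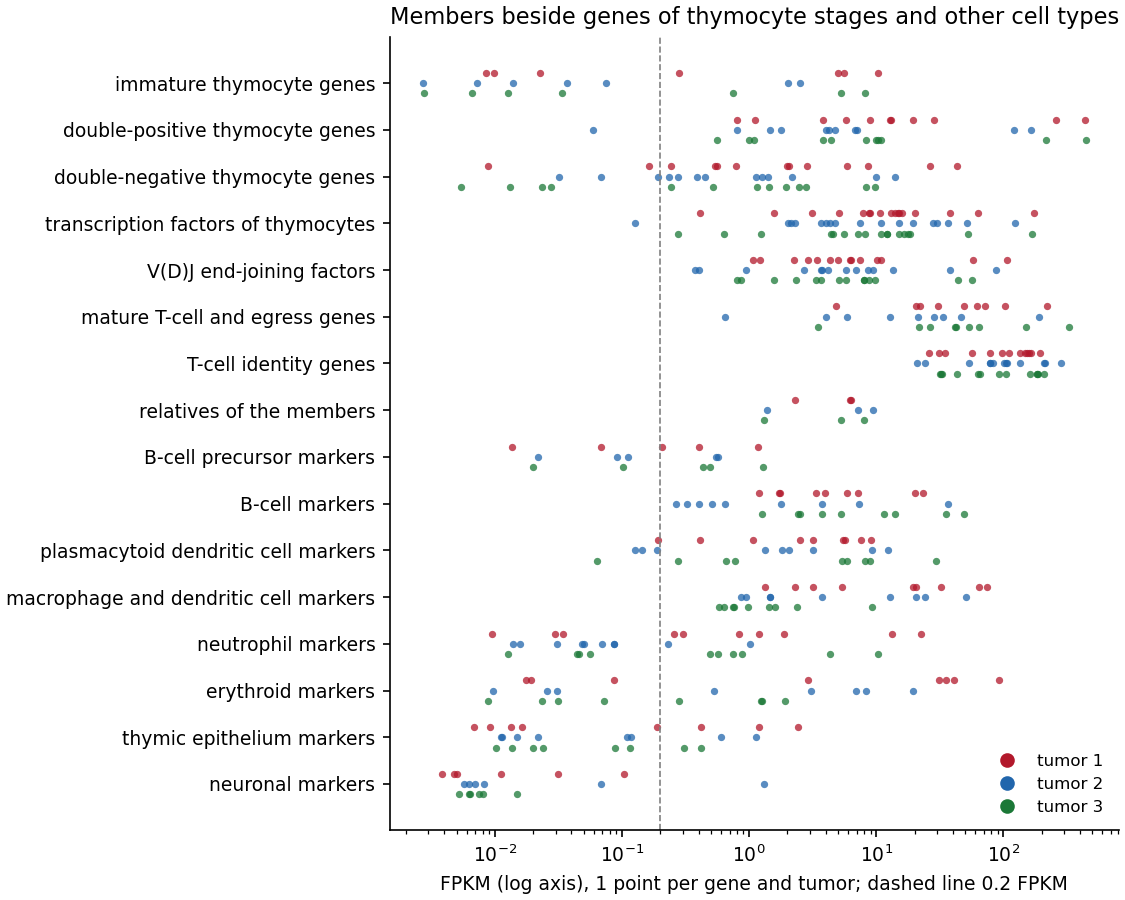
FPKM of the 7 genes and of the genes of 15 lists on a log axis, with 1 point per gene and tumor and a dashed line at 0.2 FPKM. Genes without a read are drawn at the small FPKM they hold in the table. T-cell identity genes lie at the high end in all 3 tumors, and the 7 immature thymocyte genes spread from values without a read to 10.3 FPKM.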

How the data were processed

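RNA-seq of 3 Dnmt3b+/- PTCL was used. The authors aligned trimmed reads with STAR to mm10, counted those of mapping quality 50 or more in SeqMonk, and deposited linear FPKM. Whole-genome bisulfite sequencing was not used here. Members and lists were chosen with earlier results of these data known.

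Genes with no read carry a value equal to 0.9 reads. This gave the depth and, with merged exon lengths of GENCODE M21, whole reads (within 0.002) in every tumor for 91.7% of genes with a length. Dntt gave whole reads with 2128 exon bases, its length without a later annotated transcript and the last 2 bases, and for 9 list genes the length was fitted to give whole reads. A repeated symbol took the gene with the highest mean. Named were the members, their relatives, the coreceptors, the highest 1 or 2 genes of each list by mean FPKM, markers at 0 reads, and the 3 genes closest to a member with a dominant tumor. Copies of transcripts were sought with BLAST 2.17.0 at 95% identity over 100 bases. With 1 group no test was made. Alternatives were thresholds of 0.1 and 1 FPKM, a dominant share of 50%, a filter on the mean, 2 rescalings, pseudocounts of 0.01 and 1 in place of 0.1, and each tumor left out. Steps were tested on simulated data. Software was SciPy 1.17.1, NumPy 2.4.6 and pandas 2.3.3 under Python 3.11, with plots from matplotlib 3.10.9.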

Additional observations from a re-analysis of the deposited data

How the results depend on the processing

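The count of members above 0.2 FPKM in every tumor was 2 and stayed 2 with thresholds of 0.1 and 1 FPKM and with median-of-ratios factors. It was 3, with Dntt added, when each tumor's FPKM was rescaled to sum to 1000000, and 2 to 3 when a tumor was left out. The count of members with a dominant tumor was 2. It was 1, Dntt alone, among members with a mean of at least 0.2 FPKM, because Arpp21 has a lower mean, 3 with a share over 50%, 2 under both rescalings, and 2 to 3 when a tumor was left out. List genes above 0.2 FPKM in every tumor numbered 102, between 78 and 116 under other thresholds and scalings, and 102 to 113 when a tumor was left out. Of 105 alternative counts in single lists 12 moved by more than 1.5 times. Of 35 alternative means of single members, 7 moved by more than the spread between tumors, all 7 under the rescaling to 1000000, and of 49 alternative log2 ratios 19 did. The factors that rescaled tumors 1, 2 and 3 to 1000000 were 5.30, 4.83 and 4.47, so counts above a fixed threshold and the means rise under it by construction. No paired analysis was possible because the 3 RNA-seq samples form a single group and no result comes from a test. Depth limits the low values: the 0 reads of Ptcra allow up to 0.0761 to 0.123 FPKM, depending on the tumor.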

Other observations

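Kirrel, a gene 79152 bases from Cd1d1, had 7.03 FPKM in tumor 1 and 0.304 in tumor 2, on 1611 and 43 reads, and 0 reads in tumor 3, which allows up to 0.0194 FPKM. Dclk2, 74982 bases from Cd1d1 on the other side, had 0.395, 0.460 and 0.160 FPKM. Blnk, a B-cell adaptor 34740 bases from Dntt, had 1.19, 0.264 and 1.26 FPKM in tumors 1, 2 and 3. Opalin, 2187 bases from Dntt on the other side, had values below 0.2 FPKM in every tumor, and its reads were not recovered. Of the genes listed next to Arpp21, Pdcd6ip had 24.7, 20.2 and 26.0 FPKM and Stac had 0 reads in all 3 tumors. These neighbours were chosen by position, after the values of the members were seen.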
